A study of Mus musculus with 6 samples.

Results

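Toll-like receptors and inflammasome genes were followed in the epididymal fat of mice fed a normal diet (ND) or a high-fat diet (HFD). The set holds 39 genes named by symbol: 12 Toll-like receptors, 5 genes for co-receptors and receptor trafficking, 4 adaptors, 5 genes for kinases and a ubiquitin ligase, 2 NOD receptors, 7 inflammasome sensors and 4 genes for the inflammasome adaptor, caspases and pore. Each was found by its Ensembl identifier through the GENCODE M21 annotation of the mouse genome build GRCm38, among 54532 genes in the count table. The animals were male C57BL/6J mice put on either diet at 4 weeks of age for 16 weeks, with 4.5% fat in the ND and 60% fat in the HFD, and all were labelled as untreated. RNA from whole epididymal fat, the visceral depot beside the epididymis, was sequenced in 3 libraries per diet. The sources used here do not state whether a library came from 1 mouse, so the spread between libraries may be partly technical. The comparison asks how expression of these innate immune genes in visceral fat differed between the diets.

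Toll-like receptors are membrane proteins that recognise microbial molecules and, in some cases, products of damaged host cells. Those on the plasma membrane mostly bind lipids and proteins, and those in endosomes bind nucleic acids. Binding recruits the adaptors Myd88 or Ticam1, then Irak kinases and the ubiquitin ligase Traf6, and ends in NF-kappaB, MAP kinase and interferon responses. Inflammasomes are cytosolic complexes in which a sensor recruits the adaptor Pycard and caspase-1, which matures the cytokines IL-1 beta and IL-18 and cuts gasdermin D into a pore-forming fragment. In obese fat these genes are best known from macrophages, although adipocytes and vascular cells express some of them.

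The libraries held between 16996896 and 18859320 counts, so that 3 counts, taken as the floor, equal 0.150 to 0.181 CPM (the count scaled to library size, with edgeR's TMM method). Intervals rest on the counts and on the spread between libraries of a diet, whatever its source, and the floor concerns counting only. Neither covers an error shared by all libraries of a diet. Summed over 10 adipocyte markers, CPM lay between 34930 and 44863 in the ND libraries and between 13931 and 32609 on HFD, so the labelled tissue carried its defining markers throughout. The third ND library stood apart in genes of another tissue: 8 duct epithelium markers summed to 244 CPM there and to between 16.2 and 22.8 CPM in the other libraries, and 8 motile cilium markers to 132 CPM against 2.92 to 6.62 CPM. On the first principal component the HFD libraries were spread from 23.1 to 87.9, with the second nearest to ND and the third farthest from it, and the ND libraries from -55.2 to -53.4. On the second component the ND libraries were the more spread, from -49.7 to 35.1 against -2.87 to 1.87 on HFD, with the third ND library at the low end. Replicates were not copies of each other, since the chi-square between libraries of 1 diet was at least 19 per gene.

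Toll-like receptor and inflammasome genes were mostly higher on HFD and none was lower. Of the 39 genes, 38 had enough counts to be tested, and 23 of them were higher on HFD at an adjusted p-value under 0.05 by edgeR's quasi-likelihood test, against 9.85% of all 15751 genes tested. The 15 others did not pass, 12 with a positive and 3 with a negative log2 fold change. Of the 23, 18 reached a log2 fold change of 1 or more, against 6.56% of all genes, and the median log2 fold change over the 38 genes was 0.91, against 0.01 over all genes. In 25 genes every HFD value lay above every ND value, against 21.7% of all genes tested, and these were the 23 together with Tlr4 and Irak3. By function, the share that rose was highest for the inflammasome sensors (6 of 7) and for the inflammasome adaptor, caspases and pore (4 of 4), and neither NOD receptor passed. At an unadjusted p under 0.05 there were 26 higher genes and again 0 lower, and DESeq2 and limma-voom also called 0 lower.

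The count of 23 depended on single libraries. It was 6, 5 and 9 without the first, the second and the third ND library (backgrounds of 2.08%, 2.31% and 3.78% of genes higher), 7 without the first HFD library (2.35%), 26 without the second (14.5%) and 20 without the third (8.33%). Tlr7, Tlr8, Tlr13 and Casp1 passed in each of these 6 fits, and Cd180 in 5 of them. The margin was narrow: the largest edgeR adjusted p in these fits was 0.04999 for Tlr7, 0.0471 for Casp1 and 0.0515 for Cd180. Without the second HFD library Tlr4, Cd14 and Ticam1 were added, and without the third Ly96, Irak4 and Casp4 were lost. Ly96, Irak4 and Casp4 each passed in only 1 of the 6 fits, that without the second HFD library. With other tests and settings it was 24 with DESeq2 (13.8%), 22 with limma-voom (8.99%), 23 when TMM gave way to the size factors of DESeq2 (9.48%) and 22 when it gave way to library size (9.08%), 23 without a filter (5.03%) or with at least 10 counts in 3 libraries (9.75%), 23 without robust fitting (10.1%), 21 with the replicate number as a block (7.51%), 22 on log2(FPKM + 1) (8.41%) or log2(FPKM + 0.1) (8.65%) and 5 on log2(FPKM + 1) without a filter (1.38%). No member's log2 fold change that had passed turned negative in any of the 6.

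**Figure D1:**
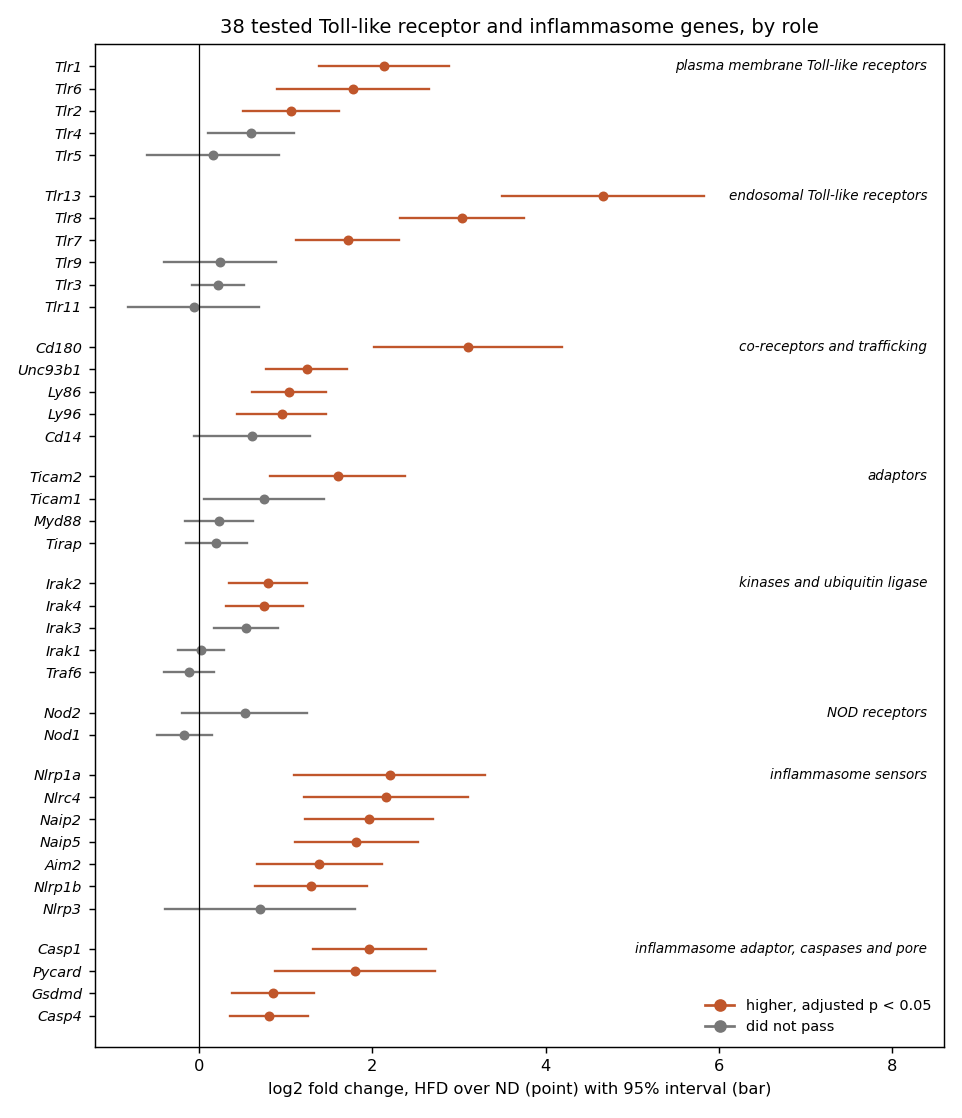
Log2 fold change of HFD over ND for the 38 tested genes, grouped by role, with points for edgeR's estimate and bars for its 95% interval. The 23 coloured genes passed the threshold, from Tlr13 at 4.66 down to Irak4 at 0.76, and the 15 grey genes lie between Ticam1 at 0.75 and Nod1 at -0.17.

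Among the Toll-like receptors of the plasma membrane, Tlr1, Tlr6 and Tlr2, which recognise bacterial lipoproteins as pairs of Tlr2 with Tlr1 or Tlr6, were higher on HFD. Tlr1 (ENSMUSG00000044827, chromosome 5 of GRCm38 from 64924679 to 64933563, minus strand) had 4.16, 4.06 and 4.4 CPM in the ND libraries against 19.6, 10.7 and 25.4 CPM in the HFD libraries. The diets did not overlap, and the second HFD library was the lowest of the 3. The log2 fold change of Tlr1 was 2.14 (standard error 0.32, edgeR adjusted p = 0.00986). Its neighbour Tlr6 (ENSMUSG00000051498, chromosome 5 from 64952031 to 64960097) went from 2.48, 3.25 and 2.70 CPM to 9.07, 5.42 and 14.4 CPM, a log2 fold change of 1.78 (standard error 0.37, edgeR adjusted p = 0.0231). These neighbouring genes are close copies: 15.4% of the 50-base stretches of Tlr1 and 12.3% of those of Tlr6 occur in another gene, so part of their reads could not be placed with certainty. Tlr2 had 13.1, 9.45 and 9.25 CPM on ND against 21.6, 16.8 and 28.2 CPM on HFD, a log2 fold change of 1.07 (standard error 0.24, edgeR adjusted p = 0.0261).

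Tlr4, the receptor for bacterial lipopolysaccharide, did not pass. Its values were 32.0, 39.3 and 34.2 CPM on ND against 50.3, 40.0 and 70.2 CPM on HFD. The groups did not overlap, but the lowest HFD value was within 1 CPM of the highest ND value. Its log2 fold change was 0.60 with a 95% interval of 0.11 to 1.10 (edgeR adjusted p = 0.0919), and the gene passed only without the second HFD library among the fits that left out 1 library. Tlr5, the flagellin receptor, overlapped between the diets, with 3.83 to 6.30 CPM on ND against 3.74 to 7.47 CPM on HFD (log2 fold change 0.16, 95% interval -0.60 to 0.93). Its sign turned without the second HFD library.

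The endosomal receptors divided into 3 that rose and 3 that did not pass. Tlr13 (ENSMUSG00000033777, chromosome X from 106143204 to 106160493, plus strand), a receptor for bacterial ribosomal RNA, had the largest log2 fold change of the 39 genes. It had 4.21, 3.83 and 3.10 CPM in the ND libraries against 75.7, 46.0 and 160.2 CPM in the HFD libraries. Even the lowest HFD library lay far above all ND libraries, although the HFD libraries differed widely among themselves. The log2 fold change of 4.66 (standard error 0.50, edgeR adjusted p = 0.00554) is a 25.3-fold difference, and it lay between 4.02 and 4.99 when single libraries were left out.

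Tlr8 (ENSMUSG00000040522) and Tlr7 (ENSMUSG00000044583), receptors for RNA and its breakdown products, are neighbours on chromosome X, from 167242696 to 167264329 and from 167304929 to 167330558 on the minus strand. Tlr8 had 6.48, 5.92 and 5.80 CPM on ND against 43.3, 32.8 and 73.0 CPM on HFD, a log2 fold change of 3.03 (standard error 0.31, edgeR adjusted p = 0.00483). Tlr7 had 8.64, 10.6 and 11.2 CPM on ND against 29.9, 24.3 and 45.9 CPM on HFD, a log2 fold change of 1.72 (standard error 0.25, edgeR adjusted p = 0.00971). Neither overlapped between the diets. Tlr3, which binds RNA duplexes, had 18.4 to 20.2 CPM on ND against 20.1 to 24.6 CPM on HFD (log2 fold change 0.22, 95% interval -0.08 to 0.52). Tlr9, which binds bacterial DNA, had 2.73 to 3.89 CPM on ND against 3.28 to 4.48 CPM on HFD (log2 fold change 0.24, 95% interval -0.40 to 0.89). Tlr3 and Tlr9 overlapped between the diets, and for Tlr3 an antisense gene shares 7.3% of its exon bases.

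The receptors for a protozoan protein, Tlr11 and Tlr12, were low in most libraries. Tlr11 had 1.33 to 1.75 CPM on ND against 1.21 to 1.75 CPM on HFD, with a log2 fold change of -0.06 (95% interval -0.81 to 0.70) whose sign turned without the third library of either diet. Tlr12 was too low to be tested, with 9, 1 and 154 counts in the ND libraries against 5, 5 and 7 in those on HFD. Its 154 counts stood in the third ND library, the one that also held duct epithelium and motile cilium markers, and the part of those cells in the value was not tested.

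**Figure D2:**
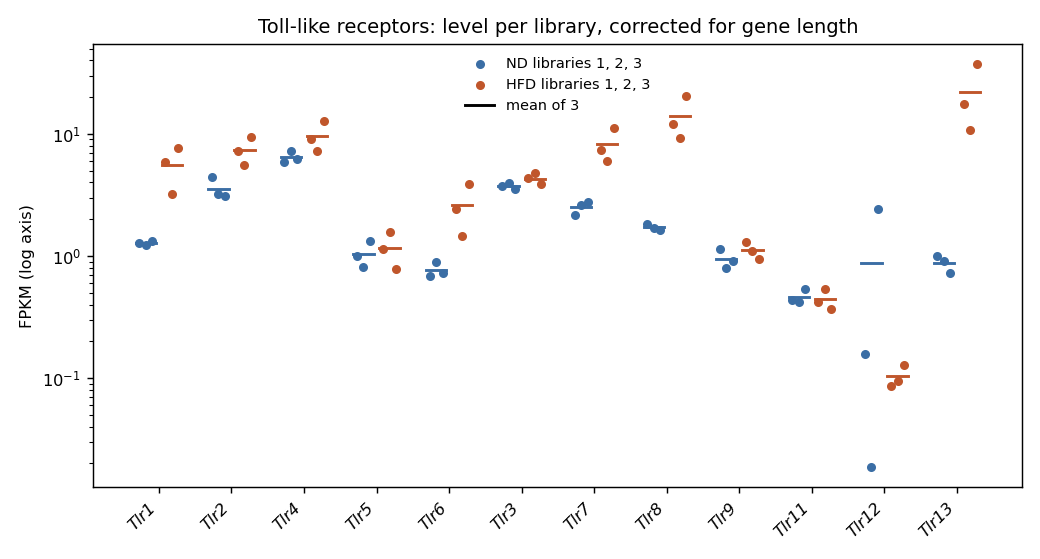
FPKM per library of the 12 Toll-like receptors, on a log axis, with 1 point per library and a line at the mean of 3, plasma membrane receptors first and endosomal receptors after. Tlr1, Tlr2, Tlr4, Tlr6, Tlr7, Tlr8 and Tlr13 show no overlap between the diets, and Tlr12 has a single high point in the third ND library.

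Per length, the balance among the receptors differed between the diets. FPKM, the count corrected for gene length and library, allows levels of different genes to be compared. Summed over the 12 receptors, FPKM was 23.7, 23.8 and 25.2 in the ND libraries against 69.1, 51.5 and 109 in the HFD libraries. Tlr4 was the receptor with the highest mean on ND, at 6.42 ± 0.71 FPKM (SD, n = 3), followed by Tlr3 at 3.74 ± 0.205 and Tlr2 at 3.57 ± 0.739, and the last of these overlapped in their libraries. On HFD the order was Tlr13 at 21.9 ± 13.8 FPKM, Tlr8 at 13.9 ± 5.80, Tlr4 at 9.66 ± 2.75 and Tlr7 at 8.20 ± 2.74 (SD, n = 3 each). The ranges of these neighbours overlapped across libraries, but within each HFD library the order was the same.

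As a share of that sum, Tlr13 went from 3.63% ± 0.689 on ND to 26.9% ± 6.84 on HFD, and Tlr8 from 7.10% ± 0.667 to 18.1% ± 0.626 (SD, n = 3 each). Tlr4 went from 26.6% ± 3.28 to 13% ± 1.21 and Tlr3 from 15.5% ± 1.28 to 6.34% ± 2.83. The share of Tlr7 was 10.4% ± 1.11 and 10.9% ± 0.647. A smaller share does not mean a lower level, since neither Tlr3 nor Tlr4 had a lower FPKM mean on HFD. These shares are given as a description, since an exact permutation test of 3 libraries against 3 cannot go below p = 0.1.

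**Figure D3:**
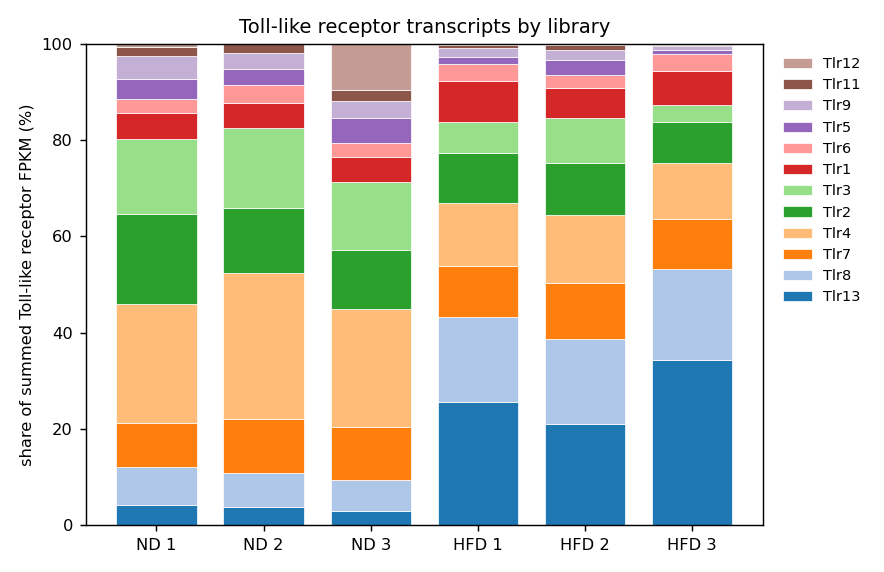
Share of the summed Toll-like receptor FPKM taken by each of the 12 receptors, in percent, with 1 bar per library. Tlr13 and Tlr8 together form the bottom 2 segments, and Tlr13 alone takes 20.9% to 34.4% in the HFD libraries and 2.87% to 4.21% in the ND libraries.

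Co-receptors and the trafficking factor rose as well, except Cd14. Cd180 (ENSMUSG00000021624, chromosome 13 from 102693558 to 102739629, plus strand), a receptor related to the Toll-like receptors that lacks their signalling domain, had 9.93, 7.66 and 8.70 CPM on ND against 74.2, 31.8 and 120.8 CPM on HFD. The diets were far apart, and the HFD libraries covered a wide range. Its log2 fold change was 3.11 (standard error 0.46, edgeR adjusted p = 0.00970). Ly86, which encodes the protein that pairs with Cd180, had the smaller log2 fold change, with 27.7, 20.8 and 23.7 CPM on ND against 50.7, 39.1 and 58.5 CPM on HFD (log2 fold change 1.04, edgeR adjusted p = 0.0137). The FPKM ratio of Cd180 to Ly86 was 0.289, 0.296 and 0.295 in the ND libraries against 1.18, 0.655 and 1.66 in the HFD libraries.

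Unc93b1, the chaperone that brings nucleic acid receptors to endosomes, was the most abundant of the 39 genes per length on either diet, at 37.9 ± 1.99 FPKM on ND against 88.9 ± 22.6 FPKM on HFD (SD, n = 3 each). Its CPM was 110.9, 99.8 and 108 on ND and 246, 190.2 and 319 on HFD, a log2 fold change of 1.24 (standard error 0.20, edgeR adjusted p = 0.0111). Ly96, which holds lipopolysaccharide in the Tlr4 complex, went from 4.26, 5.05 and 5.70 CPM to 8.74, 8.73 and 11.7 CPM (log2 fold change 0.96, edgeR adjusted p = 0.0284). Cd14, which hands lipopolysaccharide to that complex, had 34.3, 32.8 and 38 CPM on ND against 50.7, 32.8 and 77.2 CPM on HFD. The second HFD library lay just below the lowest ND library in Cd14, and the gene did not pass (log2 fold change 0.61, 95% interval -0.06 to 1.28, edgeR adjusted p = 0.178).

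Downstream of the receptors, 1 of 4 adaptors and 2 of 5 genes for kinases and the ubiquitin ligase were higher. Ticam2, which links Tlr4 to Ticam1, was the only adaptor past the threshold, with 4.26, 3.60 and 4.0 CPM on ND against 10.5, 7.59 and 18.0 CPM on HFD (log2 fold change 1.6, standard error 0.33, edgeR adjusted p = 0.0220). It shares 14.5% of its exon bases with Tmed7 on the same strand, so reads in that stretch could belong to either gene. Ticam1, the adaptor of the interferon branch, had 16.8, 11.4 and 12.5 CPM on ND against 21.5, 14.8 and 32.1 CPM on HFD and did not pass (log2 fold change 0.75, edgeR adjusted p = 0.125). Myd88, the adaptor of nearly all Toll-like receptors, had 31.7 to 39.7 CPM on ND against 32.9 to 47.6 CPM on HFD. Its log2 fold change was 0.23 with a 95% interval of -0.16 to 0.62, and 11.3% of its exon bases overlap Acaa1a on the other strand. Tirap, which tethers Myd88 to the membrane, had a log2 fold change of 0.20 (95% interval -0.15 to 0.56).

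Irak2 and Irak4 rose modestly. Irak2, a kinase-like protein that prolongs the signal, had 36.1, 49.2 and 34.8 CPM on ND against 70.7, 82.0 and 56.6 CPM on HFD (log2 fold change 0.80, edgeR adjusted p = 0.0327). It was the only one of the 23 genes with its highest HFD value in the second library and its lowest in the third. Irak4, the first kinase of the chain, went from 20.8, 17 and 19.6 CPM to 34.2, 24.2 and 38.6 CPM (log2 fold change 0.76, edgeR adjusted p = 0.0377), with 7.9% of its exon bases shared with Twf1 on the other strand. Irak3, an inhibitor of the chain, had 14.7 to 20.1 CPM on ND against 22.9 to 28.0 CPM on HFD. Its diets did not overlap, and its log2 fold change of 0.54 missed the threshold (edgeR adjusted p = 0.0563) but passed with DESeq2.

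Irak1 and Traf6 did not pass. Irak1, the second most abundant member per length on ND, had 115, 122 and 104 CPM on ND against 114, 116 and 117 CPM on HFD. Its log2 fold change was 0.02 with a 95% interval of -0.24 to 0.29, and its sign turned with DESeq2's size factors. Traf6, the ubiquitin ligase on which the Irak kinases converge, had 29.7 to 33.8 CPM on ND against 26.6 to 31.7 CPM on HFD (log2 fold change -0.11, 95% interval -0.40 to 0.18).

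The NOD receptors, which sense fragments of bacterial cell walls, did not pass with edgeR, DESeq2 or limma-voom, nor at an unadjusted p under 0.05. Nod1 had 68.2, 75.6 and 83.7 CPM on ND against 66.0, 76.3 and 60.3 CPM on HFD (log2 fold change -0.17, 95% interval -0.48 to 0.15). Nod2 had 5.40, 5.05 and 4.35 CPM on ND against 9.51, 7.47 and 4.38 CPM on HFD (log2 fold change 0.53, 95% interval -0.19 to 1.25). For Nod2 the third HFD library lay within the ND range, unlike in most of the genes that rose.

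Of the inflammasome sensors, all but Nlrp3 were higher on HFD. Nlrc4 had 1.94, 1.86 and 2.30 CPM on ND against 9.29, 4.64 and 13.4 CPM on HFD (log2 fold change 2.16, standard error 0.40, edgeR adjusted p = 0.0165). Its upstream receptors are Naip proteins, of which Naip5 recognises flagellin and Naip2 a part of bacterial secretion needles. Naip2 had 9.83, 8.47 and 8.65 CPM on ND against 31.7, 21.4 and 51.8 CPM on HFD (log2 fold change 1.96, edgeR adjusted p = 0.0115). Naip5 had 4.86, 3.89 and 4.70 CPM on ND against 15.6, 9.94 and 21.9 CPM on HFD (log2 fold change 1.82, edgeR adjusted p = 0.0123). The Naip genes are tandem copies on chromosome 13, and 36.8% of the 50-base stretches of Naip5 and 19.1% of those of Naip2 occur in another gene, so the split of reads between them is uncertain. The FPKM ratio of Naip2 to Nlrc4 overlapped between the diets, at 3.67 to 4.93 on ND and 3.34 to 4.51 on HFD.

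The Nlrp1 paralogues, whose proteins form inflammasomes, are neighbours on chromosome 11. Nlrp1a (ENSMUSG00000069830, from 71092236 to 71144704, minus strand) had 1.19, 0.464 and 0.75 CPM on ND against 3.66, 2.29 and 5.18 CPM on HFD (log2 fold change 2.20, standard error 0.47, edgeR adjusted p = 0.0235). Nlrp1b (ENSMUSG00000070390, from 71153102 to 71230733) had 3.24, 2.61 and 3.30 CPM on ND against 7.70, 5.42 and 9.39 CPM on HFD (log2 fold change 1.3, standard error 0.28, edgeR adjusted p = 0.0234). Neither overlapped between the diets. Aim2, a sensor of DNA in the cytosol, had 4.26, 4.35 and 5.45 CPM on ND against 11, 8.19 and 17.7 CPM on HFD (log2 fold change 1.39, edgeR adjusted p = 0.0261).

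Nlrp3, a sensor of cell damage and crystals, was low throughout and not distinguishable between the diets. It had 2.05, 1.10 and 1.85 CPM on ND against 2.62, 1.39 and 4.20 CPM on HFD, with the second HFD library inside the ND range. Its log2 fold change was 0.71 with a 95% interval of -0.38 to 1.81 (edgeR adjusted p = 0.323), and the interval includes 0. Its share of the summed FPKM of the 7 sensors was 7.28% ± 1.58 on ND and 3.54% ± 0.479 on HFD (SD, n = 3 each).

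The genes for the adaptor, caspases and pore, which act after the sensors, all rose. Casp1 (ENSMUSG00000025888, chromosome 9 from 5298517 to 5307265, plus strand) had 13, 14 and 11.3 CPM on ND against 45.5, 33.1 and 70.8 CPM on HFD. Its groups were well apart in every library, and the log2 fold change of 1.97 (standard error 0.28, edgeR adjusted p = 0.00898) is a 3.90-fold difference. Pycard (ENSMUSG00000030793, chromosome 7 from 127989708 to 127993867, minus strand) had 6.86, 5.68 and 6.70 CPM on ND against 21.7, 10.8 and 34.6 CPM on HFD (log2 fold change 1.80, standard error 0.39, edgeR adjusted p = 0.0256). The call of Pycard was lost with limma-voom (adjusted p = 0.0548), and 12.8% of its exon bases overlap an unclassified gene model on the other strand. Casp4, the neighbour of Casp1 and the sensor of lipopolysaccharide in the cytosol, went from 10.4, 9.22 and 10.6 CPM to 17.9, 13.8 and 21.4 CPM (log2 fold change 0.81, edgeR adjusted p = 0.0310). Gsdmd, the gene of gasdermin D, went from 23.4, 21.2 and 20.7 CPM to 39, 29.0 and 50.1 CPM (log2 fold change 0.86, edgeR adjusted p = 0.0310).

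Within this chain some FPKM ratios differed between the diets. Casp1 per Nlrp3 was 17.1, 34.4 and 16.6 on ND and 47.0, 64.8 and 45.7 on HFD, and Pycard per Nlrp3 was 3.57, 5.51 and 3.87 on ND and 8.85, 8.36 and 8.78 on HFD. Casp1 per Casp4 was 3.10, 3.76 and 2.65 on ND and 6.31, 5.95 and 8.22 on HFD. None of these ratios overlapped between the diets, and they are given as a description without a test.

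The cytokine genes whose products caspase-1 matures did not pass. Il1b had 18, 15 and 10 counts on ND against 18, 10 and 36 counts on HFD (log2 fold change 0.65, 95% interval -0.61 to 1.90, edgeR adjusted p = 0.435). Il18 had 4.59, 4.0 and 6.50 CPM on ND against 4.15, 5.84 and 5.18 CPM on HFD, and its log2 fold change of 0.01 (95% interval -0.64 to 0.65) turned negative with DESeq2's size factors and with library size alone. Both genes overlapped between the diets. Il1rn, which encodes the antagonist of the IL-1 receptor, had 2.70, 1.80 and 1.85 CPM on ND against 104, 28.5 and 260.4 CPM on HFD. Its log2 fold change was 5.95 (standard error 0.85, edgeR adjusted p = 0.00918), larger than that of any of the 39 genes.

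**Figure D4:**
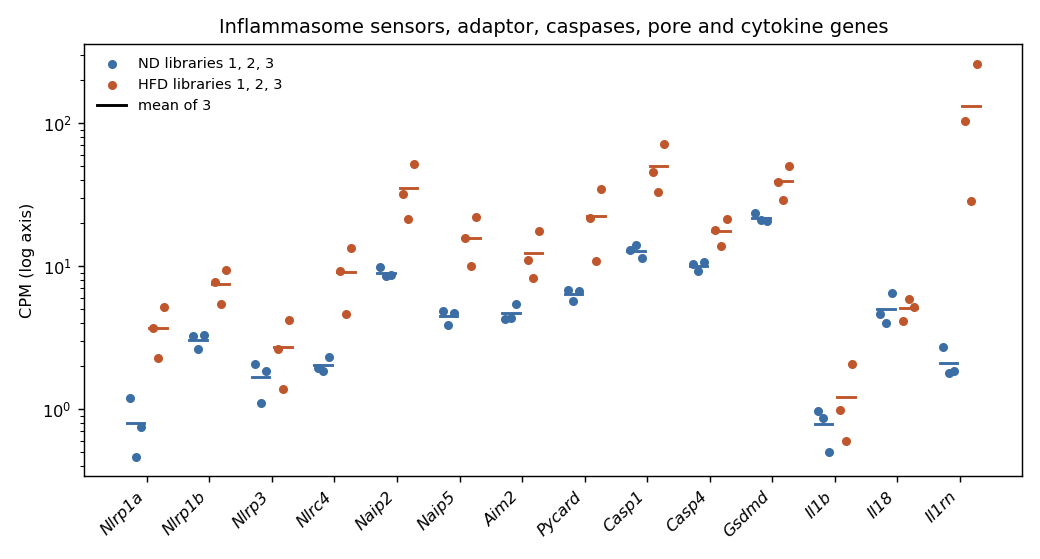
CPM per library, on a log axis, of the 7 inflammasome sensors, Pycard, Casp1, Casp4 and Gsdmd, and of the cytokine genes Il1b, Il18 and Il1rn, with 1 point per library and a line at the mean of 3. The diets overlap in Nlrp3, Il1b and Il18 and are separate in the other 11 genes.

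Sequences upstream of the start sites of the genes were examined for short motifs, since many of them rose together. RefSeq windows of 250 bases before a transcript start (GRCm38.p6) were at hand for 32 of the 39 genes, in 42 windows. The motif GAGGAAGT, a form of the site of PU.1, a transcription factor of myeloid cells and B cells, was found on either strand in 6 of the 42 windows, those of Aim2, Nlrp1a, Nlrp1b, Pycard, Tlr1 and Tlr11, and in 2.44% of all 32851 windows. Of these genes, 5 were higher on HFD and Tlr11 did not pass, where 23 of all 38 members tested were higher. The 38 include members without a window, in which the motif could not be found. A link between the motif and the rise was not tested. The windows of the Nlrp1 paralogues, Tlr1 and Pycard are printed because they carry that motif before a gene that rose. The Aim2 window does so too and is not printed. Nlrp1b and Tlr1 also have another window, and in both genes that other window lacks the motif. The window of Tlr8 lacks it as well, and is printed because Tlr8 is 1 of the 4 genes that passed in each fit without 1 library. Each printed window reads 5′ to 3′ towards the gene on its own strand, with the motif in capitals. In Pycard the capitals show the motif as it reads on the other strand. In Tlr8 they show overlapping matches of the letters TATAAA instead.
Nlrp1a, chr11:71144705-71144954, minus strand: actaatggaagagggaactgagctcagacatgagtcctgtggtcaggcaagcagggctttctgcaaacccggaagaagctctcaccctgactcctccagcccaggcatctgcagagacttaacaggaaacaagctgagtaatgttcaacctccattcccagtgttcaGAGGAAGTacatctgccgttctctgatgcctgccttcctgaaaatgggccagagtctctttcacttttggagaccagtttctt
Nlrp1b, chr11:71230734-71230983, minus strand: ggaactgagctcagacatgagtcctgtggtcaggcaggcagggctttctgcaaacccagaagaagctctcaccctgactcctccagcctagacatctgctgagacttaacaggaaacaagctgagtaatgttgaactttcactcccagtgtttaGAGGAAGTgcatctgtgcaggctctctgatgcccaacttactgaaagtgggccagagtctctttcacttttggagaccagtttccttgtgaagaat
Tlr1, chr5:64933559-64933808, minus strand: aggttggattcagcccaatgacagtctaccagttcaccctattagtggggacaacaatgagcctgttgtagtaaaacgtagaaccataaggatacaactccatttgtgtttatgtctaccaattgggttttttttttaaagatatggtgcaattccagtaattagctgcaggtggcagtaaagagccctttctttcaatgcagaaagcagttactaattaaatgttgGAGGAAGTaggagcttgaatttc
Pycard, chr7:127993868-127994117, minus strand: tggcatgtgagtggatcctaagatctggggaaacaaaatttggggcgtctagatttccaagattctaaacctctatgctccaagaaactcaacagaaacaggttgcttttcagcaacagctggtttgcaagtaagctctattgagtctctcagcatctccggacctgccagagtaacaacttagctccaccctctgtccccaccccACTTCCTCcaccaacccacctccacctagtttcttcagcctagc
Tlr8, chrX:167264330-167264579, minus strand: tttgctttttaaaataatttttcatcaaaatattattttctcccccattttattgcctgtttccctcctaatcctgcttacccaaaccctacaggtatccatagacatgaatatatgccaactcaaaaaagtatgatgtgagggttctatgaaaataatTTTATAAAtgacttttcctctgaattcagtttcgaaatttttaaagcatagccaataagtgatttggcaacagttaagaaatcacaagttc

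The motif ends 76 bases before the start in the Nlrp1a window, 89 in Nlrp1b, 16 in Tlr1 and 37 in Pycard. The Nlrp1 windows resemble each other along their length, with 185 of 250 bases in identical runs of at least 8 bases in the same order, so their matches are not independent of each other. The Pycard window lies wholly within an exon of the unclassified gene model on the other strand. Searched in the same way, an NF-kappaB site with any bases at its centre was present in the window of Tlr3 (as GGGAGTTTCC). Its share over all windows was 1.21%. An interferon-stimulated response element, likewise free at its centre, was in Myd88 (as GAAAGCGAAA), Tlr6 and Tlr11 and in 2.98% of all windows. An AP-1 site (TGANTCA) was in Tlr9 and in 6.75%. The letters of a TATA box (TATAAA) were in Myd88, Naip5, Tlr6 and Tlr8 and in 12.4%. The nearest of these TATAAA matches end 155, 231, 104 and 84 bases before the start in these 4 genes. Their use as a TATA box was not tested. N stands for any base, and both strands were read. No transcript start of the gene in GENCODE M21 was found at the Naip5 window or at the Tlr6 window that holds the response element. The matches describe letters in these windows, and binding was not measured.

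The rest of the pathway was read from 6 lists of 176 genes, written by hand, of which 152 were tested. Across them 53 genes were higher and 1 lower on HFD (backgrounds of 9.85% and 6.04% by edgeR's test), and the median log2 fold change was 0.37. Genes that process, transport or signal next to the receptors had the largest share, with 15 of 21 higher, 1 lower and a median of 1.72. They include Slc15a3, a lysosomal transporter of histidine and peptides (log2 fold change 4.0, edgeR adjusted p = 0.00344), Ctss and Ctsk, cathepsins that cut endosomal Toll-like receptors (3.62 and 3.30), and the integrin chain Itgb2 (3.55). Slc15a3 shares 28.1% of its exon bases with Tmem132a on the other strand. Hmgb1, a nuclear protein that can act as an alarm signal outside the cell, was the 1 lower gene, at 79.1, 85.5 and 92.8 CPM on ND against 65.6, 62.8 and 66.6 CPM on HFD (log2 fold change -0.40, edgeR adjusted p = 0.0466). That call was lost in 5 of the 6 fits without 1 library.

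In the NF-kappaB and MAP kinase branch 10 of 41 genes were higher and the median was 0.27. Atf3, a stress-induced repressor of Toll-like receptor responses, had 12.4, 8.18 and 10 CPM on ND against 214, 123 and 404 CPM on HFD (log2 fold change 4.60, edgeR adjusted p = 0.00489). The immediate early gene Fos had a log2 fold change of 3.33, the kinase gene Map3k8 of 1.38, and Tnfaip3, which encodes a deubiquitinase that ends NF-kappaB signalling, of 1.23. The values of Tnfaip3 were tight, at 15.1 to 15.5 CPM on ND against 35.5 to 37.2 CPM on HFD (edgeR adjusted p = 0.00338). In the interferon branch 8 of 25 genes were higher with a median of 0.22, among them Irf5 (1.99), Ikbke (1.78), Irf8 (1.48) and Cgas (1.23), while Ifnb1, interferon beta, had at most 3 counts in every library. Irf5 shares 14.1% of its exon bases with Tnpo3 on the other strand.

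Other NLR and inflammasome genes were higher in 12 of 40 cases, with a median of 0.32, and included Pstpip1 (2.46), Nlrp10 (1.94) and Naip6 (1.93). In the IL-1 family 1 of 12 tested genes was higher, Il1rn, and the median was 0.16. Among cytokines and other products that Toll-like receptors induce, 7 of 13 tested genes were higher with a median of 1.83, led by the chemokines Cxcl2 (3.96), Ccl3 (3.18), Ccl4 (2.50) and Cxcl1 (2.46). Tnf was low but separate, with 18, 10 and 19 counts on ND against 57, 35 and 73 on HFD (log2 fold change 1.90, edgeR adjusted p = 0.0221). Il6 had too few counts to be tested, 6, 1 and 2 on ND against 4, 5 and 12 on HFD.

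The order of the HFD libraries was the same for nearly all members that rose. Of the 23, 22 were highest in the third HFD library and 22 lowest in the second, and of all 1552 genes higher on HFD 1251 were highest in the third and 1221 lowest in the second. Macrophage markers had that order too, with a summed level of 1959 to 2058 CPM in the ND libraries against 5357, 4229.5 and 9108 CPM in the HFD libraries. Of 12 macrophage markers, 9 were higher, against 9.85% of all genes tested. Their median log2 fold change was 1.44, with a range of -0.05 to 4.54. Adipocyte markers ran the other way, at 21511, 32609 and 13931 CPM in the HFD libraries. The order of the members was not particular to macrophage markers. Summed progenitor and fibroblast markers had it too, at 4166, 3390 and 6370 CPM in the HFD libraries. So did mast cell markers (86.1, 57.0 and 201 CPM) and neutrophil markers (14.3, 14.1 and 19.9 CPM), but the remaining lists did not. More cells of a type and more RNA per cell cannot be told apart in whole tissue, and the part of cell composition in the members' values was not tested.

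For markers of other immune cells the backgrounds are 9.85% of all genes tested higher and 6.04% lower by edgeR's test. With so few genes per list, a count of 0 is not far from these shares. None of 8 monocyte, 8 B cell, 9 T and NK cell or 6 mast cell markers tested passed by edgeR's test or by limma-voom. At an unadjusted p under 0.05 there were 2, 0, 0 and 3, and DESeq2 called 1 monocyte marker higher and 1 lower and 3 mast cell markers higher. Of 7 dendritic cell markers 1 was higher, and of 4 neutrophil markers tested 2 were higher and 1 lower, with Ly6g at or under 3 counts in every library. Summed over the lists, monocyte markers had 424 to 467 CPM on ND against 343 to 374 CPM on HFD, and neutrophil markers 6.55 to 11 CPM on ND against 14.1 to 19.9 CPM on HFD. No fibroblast, endothelial or mesothelial marker passed by edgeR's test or limma-voom, with 1 endothelial marker lower at an unadjusted p under 0.05 and by DESeq2.

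**Figure D5:**
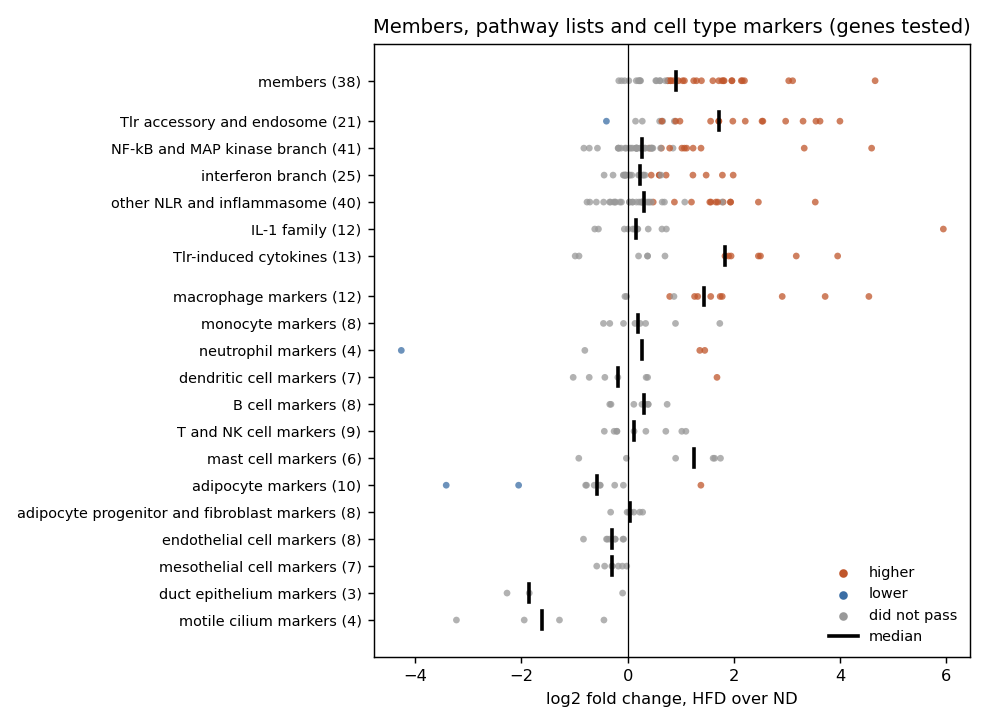
Log2 fold change of HFD over ND for each tested gene of the 39 members, the 6 pathway lists and the 13 cell type marker lists, with the number of genes tested in brackets and a bar at the median. The members, the accessory and endosome list, the induced cytokines and the macrophage markers have medians of 0.91, 1.72, 1.83 and 1.44, and the other pathway lists lie between 0.16 and 0.32.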

How the data were processed

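RNA-Seq of epididymal fat was analysed in 3 ND and 3 HFD libraries, grouped by the sample labels. The authors deposited raw counts per gene and FPKM values for the same genes, and each FPKM was found to be its count over a gene-specific length and a library-specific factor (11492 genes compared). The methods of the paper name TopHat and Cufflinks with GRCm38, while the submitters' processing notes list fastp, HISAT2 2.0.5, featureCounts 1.5.0-p3, DESeq2 1.20.0 and the human builds GRCh38 and hg38. The identifiers are of mouse, 54495 of 54532 were found in GENCODE M21, and the annotation release and strand setting used for counting are not given in the sources used here. Wrong placement of reads would affect close copies and overlapping genes first. The library kit was NEBNext Ultra after TRIzol extraction.

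Counts were tested with edgeR 4.0.16 in R 4.3.3 (TMM, filterByExpr, glmQLFit with robust=TRUE, no factor but diet, p-values adjusted by Benjamini-Hochberg over all 15751 genes tested, threshold 0.05). Standard errors were derived from the F statistic. The methods use DESeq2 at the same threshold, which was run as an alternative. Levels are in CPM, and in FPKM where genes are compared. Tlr12 and Il6 had too few counts for edgeR's filter, although some of their libraries stood above the floor of 3 counts. The method was tested on simulated data.

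As alternatives, the test was exchanged for DESeq2 1.42.0 or limma-voom (version 3.58.1), and TMM for the size factors of DESeq2 or for library size. The filter was dropped or set to 10 counts in 3 libraries, and robust fitting was turned off. A block for the replicate number was added, single libraries were left out, and a fold threshold of 1 on the log2 scale was imposed. FPKM values were tested by limma as log2(FPKM + 1), keeping genes at 0.5 or more in 3 libraries, then with a pseudocount of 0.1 and without that filter. The members and lists were chosen with earlier results of these data known. Named were all members and, from each related list, the 4 largest increases and 2 largest decreases past the threshold with an average log2 CPM above 0, besides Il1b, Il18, Il1rn, Tnf and Il6. A result that this rule names is not reported here.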

Additional observations from a re-analysis of the deposited data

How the results depend on the processing

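The main test called 2504 genes, 23 members and, in the related lists, 53 higher genes and 1 lower gene. The genes called over the whole table were 3961 with DESeq2, 649 on log2(FPKM + 1) without a filter, and 1585 under the fold threshold. Without 1 library the counts ran from 474 to 3940 for the whole table, from 5 to 26 for members that rose and from 14 to 70 for related genes that rose. The FPKM test without a filter, which adjusts over 28568 genes, called 5 members and 16 related genes higher. The other tests, scalings and filters kept from 21 to 24 members: DESeq2 gained Irak3, limma-voom lost Pycard, and library size only and both filtered FPKM tests lost Irak4. No member was lower under any of these settings. The share of all genes called lower ran from 0.580% without the first HFD library to 11.3% with DESeq2. The number of related genes that fell was 4 with DESeq2, 0 with limma-voom, library size only, no count filter, no FPKM filter or the fold threshold, and 0 to 4 without 1 library. The log2 fold change of Irak1 turned negative with DESeq2 (-0.0007) and its size factors (-0.0009), and the log2 fold change of Il18 with DESeq2 (-0.0151), its size factors (-0.0129) and library size only (-0.0193). Without 1 library, the log2 fold change of Tlr5 ran from -0.11 to 0.37, the log2 fold change of Tlr11 from -0.21 to 0.0403, the log2 fold change of Irak1 from -0.0713 to 0.0776 and the log2 fold change of Il18 from -0.13 to 0.20. The cause was not tested. The replicate numbers shared by the diets paired nothing, with correlations of -0.0858, -0.0556 and -0.0053 between the deviations of same-numbered libraries, and with them as a block 1886 genes and 21 members passed, without Tlr6 and Gsdmd. An arm of 2 libraries and few counts limit what can be said of Nlrp3, Tlr11, Tlr12, Il1b and Il6.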
